A study of Mus musculus with 20 samples.

Results

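The matrix metalloproteases (Mmp genes), the ADAMTS proteases and the tissue inhibitors of metalloproteases (Timp genes) were followed in plantaris muscle over the first week of mechanical overload (MOV). Members were taken by gene symbol: every gene of the array table whose only symbol was Mmp, Timp or Adamts followed by digits and at most 1 small letter. The rule gave 43 genes of the 19505 measured, namely 21 Mmp, 18 Adamts and 4 Timp genes, and each was read by 1 probe set. *Adamts2*, *Mmp15* and *Mmp27* were not analysed here. All mice were females aged 5 months with the genotype Pax7CreER/+; Rosa26DTA/+, in which Cre is driven by the satellite cell gene *Pax7* and tamoxifen switches on diphtheria toxin A in cells that hold it. Vehicle-treated mice kept their satellite cells (SC+) and tamoxifen-treated mice were depleted of them (SC-), and after a washout each arm had sham surgery or synergist ablation, which overloads the plantaris, for 1, 3, 5 or 7 days. No arm received tamoxifen and kept its satellite cells, so SC- against SC+ was also tamoxifen against vehicle. Each of the 10 groups had 2 arrays, and an array carried a pool of RNA from a few mice, so the spread below is that between 2 pools.

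These enzymes are secreted or membrane-bound zinc proteases that cut the extracellular matrix. Mmp proteins are made as inactive proenzymes, ADAMTS proteins cut mostly proteoglycans, procollagens and microfibril proteins, and TIMPs block the active site of the enzymes. In muscle they are known from regeneration and hypertrophy, where invading leukocytes, fibroblasts, endothelial cells and satellite cells all make some of them.

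Values are log2 signals per probe set, so a difference of 1 is a doubling. They compare a gene with itself across arrays and not with another gene. Of the 43 members 20 had a mean under 6 over the 20 arrays, a range that held most of the background signal: the 23 background control probe sets had means of 2.72 to 7.05, with a median of 5.39. Members in that range are called dim below. RNA came from whole muscle, in which fewer cells of a type and less RNA per cell cannot be told apart.

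Some arrays stood apart from their partner. SC+ sham replicate 2 was above replicate 1 for *Timp1* (9.07 against 5.01), *Mmp2* (13.73 against 10.87), *Mmp14* (9.64 against 6.64) and *Mmp19* (8.34 against 7.01), and the log2 of the summed signals of 10 macrophage markers was 14.77 there and 11.54 in replicate 1. *Mymk*, the myoblast fusion gene myomaker, read 12.74 and 6.87 in the same order. In SC- MOV day 1, replicate 2 was above replicate 1 for *Mmp2* (13.52 against 10.81), *Timp2* (12.55 against 10.47) and *Mmp16* (7.08 against 5.42). In SC+ MOV day 7, *Mmp9* (6.27 and 8.47), *Mmp12* (9.81 and 12.75) and *Mmp13* (10.47 and 7.02) differed between the arrays. Each call of a member was therefore recomputed without each array in turn. The satellite cell gene *Pax7* was dim in all arrays, at 4.17 to 5.22 in SC+ and 3.77 to 4.70 in SC-, so the depletion is poorly read by it. Of 7 satellite cell and myoblast markers, 3 were lower in SC- at sham, none at day 1, 4 at day 3, 4 at day 5 and 3 at day 7 at an unadjusted p under 0.05. Of all genes 5.58%, 5.99%, 5.46%, 9.2% and 12.1% passed in either direction at these times.

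Of the 9 measured genes of the Mmp run on chromosome 9, 6 passed the test on at least 1 day of MOV in SC+ (all genes, 33.2%) and they did so on different days. In the RefSeq annotation of GRCm38.p6, 10 protein-coding genes follow each other there in the order *Mmp13*, *Mmp12*, *Mmp1b*, *Mmp3*, *Mmp1a*, *Mmp10*, *Mmp8*, *Mmp27*, *Mmp20* and *Mmp7*. RefSeq promoter sequences were at hand for 29 of the 43 members, among them all 9 measured genes of the run. *Mmp2*, *Mmp9*, *Mmp16*, *Mmp17*, *Mmp19*, *Adamts4*, *Adamts5*, *Adamts6*, *Adamts7*, *Adamts8*, *Adamts10*, *Adamts15*, *Adamts16* and *Adamts19* had no sequence, so a match in them could not be read. The 250 bases before the start held the letters TGAGTCA or their reverse complement TGACTCA, a match to the AP-1 motif, in 7 of these 29 genes (7 of 32 windows) and in 4.46% of 32851 windows of the same length over all genes. All 7 genes lie in that run: *Mmp1a*, *Mmp1b*, *Mmp3*, *Mmp7*, *Mmp10*, *Mmp12* and *Mmp13*. As genes of 1 run they cannot be taken as independent matches. Of them *Mmp1a* and *Mmp7* passed on no MOV day of either treatment. The windows of *Mmp8* and *Mmp20* lacked these letters. So did a further window, at another start, of *Mmp12* (chr9:7344147-7344396) and of *Mmp7* (chr9:7692091-7692340). A match is a description of the letters and not a measured binding site. *Mmp8*, without the letters, rose at day 1 in SC+, and *Mmp1b*, with them, fell. The last 100 bases before the start are shown for the genes of the run that carry the letters and changed with MOV, 5′ to 3′ on the strand of the gene, with the match in capitals.
Mmp3: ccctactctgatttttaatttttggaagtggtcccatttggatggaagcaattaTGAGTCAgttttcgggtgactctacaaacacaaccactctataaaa
Mmp10: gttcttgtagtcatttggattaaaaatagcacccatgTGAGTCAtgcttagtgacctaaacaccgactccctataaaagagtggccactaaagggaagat
Mmp12: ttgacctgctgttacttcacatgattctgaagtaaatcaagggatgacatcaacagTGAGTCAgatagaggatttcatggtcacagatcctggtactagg
Mmp13: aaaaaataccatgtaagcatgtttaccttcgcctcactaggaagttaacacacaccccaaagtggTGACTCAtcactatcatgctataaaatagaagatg
Mmp1b: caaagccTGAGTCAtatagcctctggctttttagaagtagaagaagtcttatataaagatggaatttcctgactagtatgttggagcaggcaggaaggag
On GRCm38.p6 these are chr9:7445722-7445821, chr9:7502242-7502341, chr9:7347274-7347373, chr9:7272414-7272513 and, on the minus strand, chr9:7388027-7388126. The match began 46 bases before the start in *Mmp3*, 63 in *Mmp10*, 44 in the *Mmp12* window shown, 35 in *Mmp13* and 93 in *Mmp1b*.

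In SC+ muscle the balance of genes shifted from rises and falls in equal number at day 1 to almost only rises at day 7. The stromelysins *Mmp3* and *Mmp10*, the collagenase *Mmp8* and *Mmp9* rose on day 1. The gelatinase *Mmp2*, its activator *Mmp14* and *Timp2* rose on days 5 and 7. *Timp1* rose and *Timp4* fell on every day. Against SC+ sham, 8 members rose and 8 fell at day 1 at an adjusted p under 0.05 (limma, adjusted over all 19505 genes), where 8.7% of all genes rose and 9.03% fell. The counts were 10 higher and 2 lower at day 3 (all genes, 12% and 9.52%), 13 higher and 3 lower at day 5 (11.4% and 7.87%), and 15 higher and 1 lower at day 7 (10.5% and 7.59%). In percent of the 43 members the rises were 18.6, 23.3, 30.2 and 34.9. The median log2 change of the members was 0, 0.10, 0.56 and 0.60 on the 4 days, and that of all genes was -0.03, -0.06, -0.10 and -0.07.

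**Figure D1:**
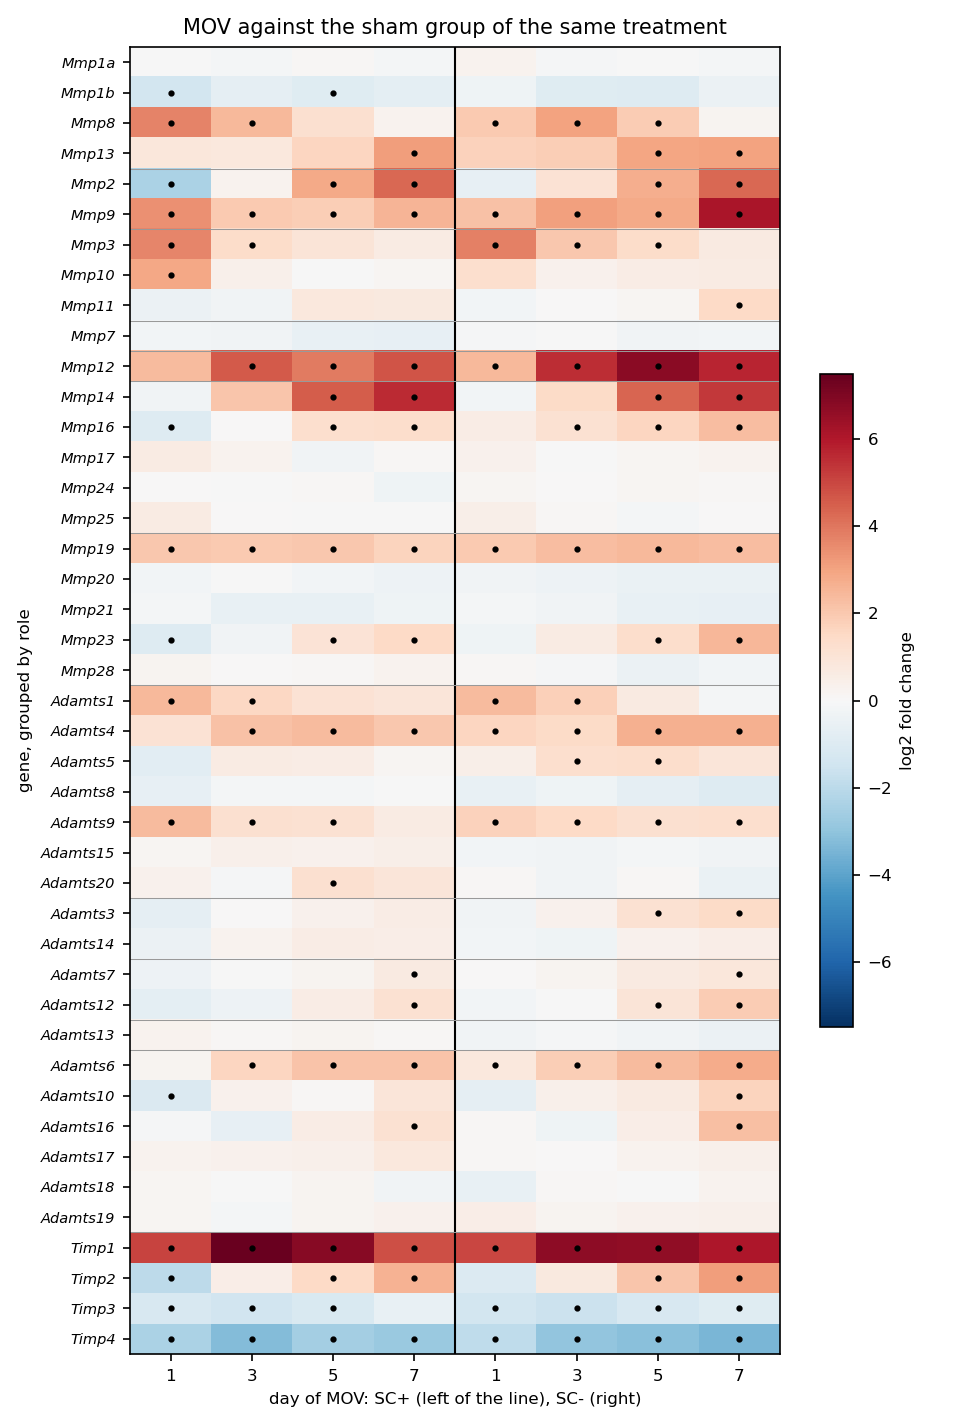
Log2 fold change of each of the 43 genes at each day of MOV against the sham group of the same treatment (rows, genes grouped by role; columns, MOV days, SC+ left and SC- right of the line). A black dot marks an adjusted p under 0.05, and *Timp1*, *Timp4*, *Mmp9* and *Mmp19* carry one in all 8 columns.

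Of the 60 calls in SC+, 35 held without any 1 array. Without SC+ sham replicate 2, the array with the high *Timp1* and macrophage signal, 8, 14, 15 and 13 members rose and 4, 2, 2 and 1 fell on the 4 days, and without replicate 1 the counts were 8, 8, 8 and 11 rises and 8, 4, 2 and 2 falls.

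Among the inhibitors, *Timp1* rose on every day, *Timp2* fell first and rose later, and *Timp3* and *Timp4* fell. *Timp1*, an inducible inhibitor of most secreted Mmp enzymes, read 5.01 and 9.07 in the SC+ sham arrays, 12.17 and 12.04 at day 1, 14.32 and 14.58 at day 3, 14.00 and 13.76 at day 5, and 11.56 and 12.23 at day 7. Every MOV array was above both sham arrays. The rise was 5.06 ± 0.88 (SE) at day 1 (adjusted p = 0.00196), 7.41 at day 3 (adjusted p = 1.40e-04), 6.83 at day 5 and 4.85 at day 7. Sham replicate 1 lay within the range of the background controls, and the sham arrays set the size of the rise: without 1 array it ran from 3.03 to 7.10, 5.38 to 9.44, 4.80 to 8.87 and 2.82 to 6.89 on the 4 days, lowest without sham replicate 1 and highest without replicate 2, and it passed each time.

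*Timp2*, which inhibits *Mmp2* and also docks its proenzyme to *Mmp14*, read 12.23 and 13.13 in sham, 10.94 and 10.49 at day 1, 13.35 and 13.06 at day 3, 13.88 and 14.41 at day 5, and 15.19 and 15.35 at day 7. It lay below sham at day 1, overlapped it at day 3 and lay above it at days 5 and 7. The changes were -1.96 ± 0.31 (SE, adjusted p = 0.00125), 0.52 (adjusted p = 0.296), 1.47 (adjusted p = 0.00677) and 2.59 (adjusted p = 3.75e-04). The day 5 rise ended without sham replicate 1 or MOV day 5 replicate 2, with 1.02 as its lowest value.

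*Timp4*, an inhibitor known from heart and skeletal muscle, read 9.98 and 8.34 in sham, 6.52 and 7.03 at day 1, 6.22 and 5.55 at day 3, 6.74 and 6.49 at day 5, and 6.55 and 6.23 at day 7. All MOV arrays were below the lower sham array. The falls were -2.38, -3.27 ± 0.44 (SE, adjusted p = 2.71e-04), -2.54 and -2.77. None ended without 1 array, and without sham replicate 1 they were -1.56, -2.46, -1.72 and -1.95. *Timp3*, a matrix-bound inhibitor that also blocks ADAMTS enzymes, was dim. It read 6.37 and 6.17 in sham, 5.01 and 5.17 at day 1, 4.53 and 5.12 at day 3, 5.18 and 5.08 at day 5, and 6.10 and 5.30 at day 7. It fell by 1.18 at day 1, 1.45 at day 3 (adjusted p = 0.00337) and 1.15 at day 5, and read -0.57 at day 7 (adjusted p = 0.215). The falls at days 1 and 5 ended without sham replicate 1 or either MOV array, with log2 changes of -1.28 to -1.08 and -1.25 to -1.04 over the arrays left out.

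**Figure D2:**
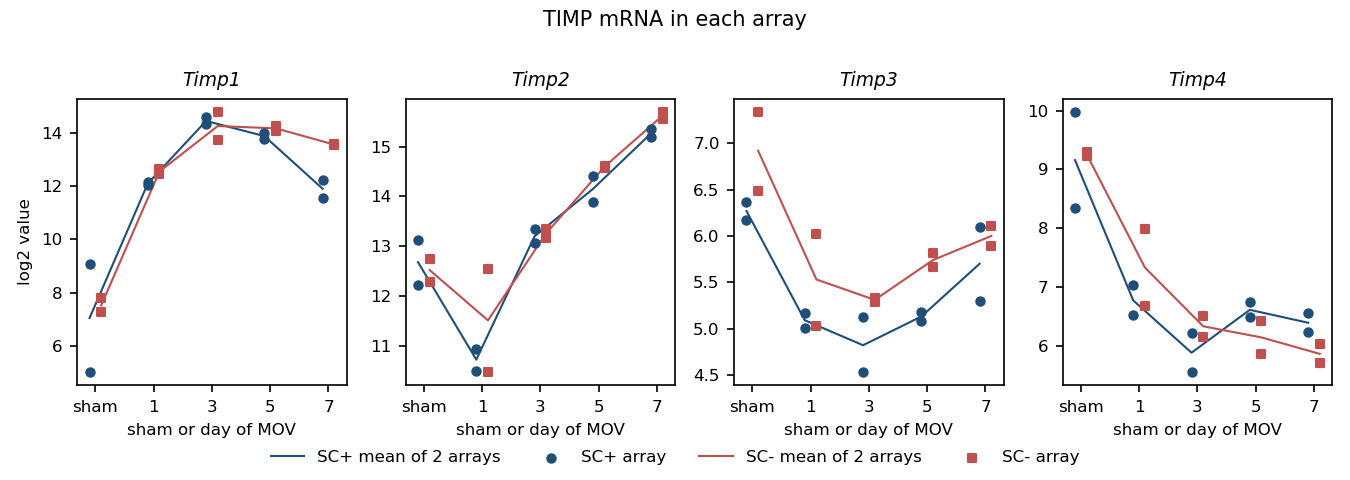
Log2 values of *Timp1*, *Timp2*, *Timp3* and *Timp4* (vertical axis, a scale for each gene) in sham and at MOV days 1 to 7; points are arrays and lines join the means of 2 arrays, circles for SC+ and squares for SC-. *Timp1* rises from 5.01 and 9.07 to above 14 at day 3 in SC+, while *Timp4* falls and stays low in both treatments.

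On day 1 the proteases *Mmp8*, *Mmp3*, *Mmp9* and *Mmp10* rose by 2.90 to 3.70. The sham values of *Mmp8*, *Mmp9* and *Mmp10* lay near or below the median of the background controls, so their rises can be understated and the order of the 4 genes is not read. *Mmp3* (stromelysin 1), which cuts proteoglycans and laminin and activates other Mmp proenzymes, read 7.00 and 8.0 in sham, 11.03 and 11.24 at day 1, 9.08 and 8.64 at day 3, 7.94 and 8.94 at day 5, and 8.49 and 7.78 at day 7. It stood above sham at days 1 and 3 and overlapped it later. The rise was 3.64 ± 0.39 (SE) at day 1 (adjusted p = 9.55e-05) and 1.36 at day 3 (adjusted p = 0.027), and the latter ended without sham replicate 1 or either day 3 array (0.86 to 1.86). *Mmp10* (stromelysin 2), its relative in the same run of chromosome 9, was dim and read 4.12 and 4.92 in sham and 8.56 and 6.27 at day 1. It rose by 2.90 at day 1 (adjusted p = 0.00300, and 1.76 to 4.04 without 1 of the arrays, which stood apart at day 1) and lay between 4.38 and 4.92 at days 3 to 7. *Mmp11*, a stromelysin by name, did not pass on any SC+ day (-0.42 to 0.79).

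*Mmp8*, the neutrophil collagenase, read 5.87 and 5.30 in sham, 9.52 and 9.05 at day 1, 6.90 and 9.14 at day 3, 7.09 and 6.49 at day 5, and 5.78 and 5.97 at day 7. Its mean was highest at day 1, and it was near the sham values at day 7. The rise was 3.70 ± 0.54 (SE) at day 1 (adjusted p = 6.81e-04) and 2.44 at day 3 (adjusted p = 0.00621), where the value was 1.32 without MOV day 3 replicate 2. *Mmp9* (gelatinase B), an enzyme of neutrophil granules that macrophages also make, read 4.95 and 4.73 in sham, 8.16 and 8.33 at day 1, 6.73 and 6.84 at day 3, 6.49 and 6.93 at day 5, and 6.27 and 8.47 at day 7. All MOV arrays exceeded sham. It rose by 3.40 ± 0.51 (SE) at day 1 (adjusted p = 7.80e-04), 1.95 at day 3, 1.87 at day 5 and 2.53 at day 7. The day 3 rise ended without either day 3 array (1.84 to 2.06) and the day 5 rise on leaving out any of its 4 arrays (1.64 to 2.09), and that of day 7 was 1.43 without MOV day 7 replicate 2.

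The summed signal of neutrophil markers was highest at day 1 and fell to day 7, as did the mean of *Mmp8*. The mean of *Mmp9* was higher at day 7 than at day 5. Of 7 markers, 5 were called higher at days 1 and 3 (all genes, 8.7% and 12%), 4 higher and 1 lower at day 5 (11.4% and 7.87%), and 1 higher at day 7 (10.5%). The log2 of their summed signals was 8.51 and 9.49 in SC+ sham, 14.63 and 14.78 at day 1, 12.37 and 12.88 at day 3, 11.57 and 11.17 at day 5, and 9.57 and 10.72 at day 7. The granule genes *Elane* and *Mpo*, made in the bone marrow, did not rise on any SC+ day (*Elane* fell by 0.87 at day 5). The part of the neutrophil markers in the rises of *Mmp8* and *Mmp9* was not tested.

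*Mmp12*, the macrophage metalloelastase, rose to a high level by day 3 and stayed there. It read 6.30 and 6.84 in sham, 9.57 and 8.36 at day 1, 9.90 and 12.43 at day 3, 10.81 and 10.16 at day 5, and 9.81 and 12.75 at day 7. All MOV arrays were above sham. The change was 2.39 at day 1 (adjusted p = 0.0848), 4.60 ± 0.88 (SE) at day 3 (adjusted p = 0.00249), 3.91 at day 5 and 4.71 at day 7, and the day 5 rise ended without MOV day 5 replicate 1 (3.59 to 4.24 over the arrays left out). Without replicate 2 of the day, the rise was 3.33 at day 3 and 3.25 at day 7. With all 20 arrays in 1 fit the day 1 rise of *Mmp12* passed (adjusted p = 0.0333). Of 10 macrophage markers, 2 were called higher and 1 lower at day 1 (all genes, 8.7% and 9.03%), 9 higher at days 3 and 5 (12% and 11.4%), and 8 higher at day 7 (10.5%). The day 7 count was 0 without MOV day 7 replicate 2, 3 without sham replicate 1 and 4 without MOV day 7 replicate 1, and the day 5 count 5 without MOV day 5 replicate 2. At day 1, 6 were higher without sham replicate 2. The log2 of their summed signals was 11.54 and 14.77 in sham, 16.09 and 14.78 at day 1, 17.58 and 17.77 at day 3, 16.52 and 17.04 at day 5, and 16.16 and 16.53 at day 7. Their part in the rise of *Mmp12* was not tested. *Mmp13* (collagenase 3), the next gene on chromosome 9, read 5.64 and 5.59 in sham and 10.47 and 7.02 at day 7. It rose by 3.12 at day 7 (adjusted p = 0.0173), which ended without sham replicate 1 or MOV day 7 replicate 1, with 1.40 as its lowest value. *Mmp19*, a widely expressed Mmp, read 7.01 and 8.34 in sham and 9.19 to 9.72 in all MOV arrays, with rises of 2.00, 1.95, 2.00 and 1.68. Without sham replicate 1 they were 1.34, 1.29, 1.33 and 1.02. The last ended without MOV day 7 replicate 2.

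*Mmp2* (gelatinase A), *Mmp14* (membrane type 1 Mmp, which activates the *Mmp2* proenzyme) and the membrane-bound *Mmp16* and *Mmp23* shared a late course. *Mmp2* read 10.87 and 13.73 in sham, 9.92 and 9.95 at day 1, 12.40 and 12.70 at day 3, 14.87 and 15.44 at day 5, and 16.42 and 16.80 at day 7. It was below both sham arrays at day 1, between them at day 3 and above them at days 5 and 7. The changes were -2.36 ± 0.64 (SE, adjusted p = 0.0240), 0.25 (adjusted p = 0.843), 2.86 (adjusted p = 0.00869) and 4.31 (19.9-fold, adjusted p = 9.50e-04). The fall at day 1 ended without sham replicate 2 or either day 1 array (-3.79 to -0.93), and the rise at day 5 without MOV day 5 replicate 2 (1.43 to 4.29). Without sham replicate 1 the rise at day 7 was 2.88.

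*Mmp14* read 6.64 and 9.64 in sham, 8.18 and 7.54 at day 1, 10.04 and 10.40 at day 3, 12.26 and 13.11 at day 5, and 13.44 and 13.99 at day 7. From day 3 it exceeded both sham arrays. The changes were -0.28, 2.08 (adjusted p = 0.0544), 4.55 ± 0.70 (SE, adjusted p = 0.00108) and 5.57 (adjusted p = 4.31e-04), and sham replicate 1 lay within the range of the background controls. Without sham replicate 2 the day 3 value was 3.58, and without replicate 1 the rises at days 5 and 7 were 3.04 and 4.07. The day 3 rise passed with all 20 arrays in 1 fit (adjusted p = 0.0286), a replicate block (0.0314) or brighter genes alone (0.0497). *Mmp23* read 6.32 and 6.57 in sham, 5.54 and 5.36 at day 1, 6.18 and 6.23 at day 3, 7.41 and 7.54 at day 5, and 7.62 and 8.19 at day 7. It fell by 0.99 at day 1 and rose by 1.03 at day 5 and 1.47 ± 0.24 (SE) at day 7 (adjusted p = 0.00161). Its calls at days 1 and 5 ended without MOV day 1 or day 5 replicate 2 and without sham replicate 2 (day 1, -1.11 to -0.87) or replicate 1 (day 5, 0.91 to 1.16). *Mmp16* fell by 0.99 at day 1 and rose by 1.25 and 1.32 at days 5 and 7. Its calls ended without sham replicate 2 or MOV day 1 replicate 2 (day 1, -1.24 to -0.74), MOV day 5 replicate 1 or sham replicate 1 (day 5, 1.00 to 1.49) and MOV day 7 replicate 2 (day 7, 1.07 to 1.56).

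Fibroblast markers had a course of the same shape. Of 6 measured, 5 were called lower at day 1 (all genes, 9.03%), 1 lower at day 3 (9.52%), 4 higher at day 5 (11.4%) and 5 higher at day 7 (10.5%). Without any 1 array, 2 to 5 were lower at day 1, 2 to 4 higher at day 5 and 3 to 6 higher at day 7, lowest without replicate 2 of the day at days 1 and 5. The log2 of their summed signals was 17.13 and 17.62 in sham, 16.56 and 16.13 at day 1, 17.25 and 16.87 at day 3, 17.88 and 18.21 at day 5, and 18.70 and 18.62 at day 7. Parts of this course were seen in other lists too. The sums of the pericyte and smooth muscle list were 12.44 and 13.12 in sham, 11.24 and 10.92 at day 1, and 15.09 and 15.56 at day 7. That rise was mostly of 1 gene, *Acta2*, at 11.55 and 12.68 in sham and 14.93 and 15.45 at day 7. The median of the list moved little, from 8.23 and 8.52 in sham to 7.61 and 7.54 at day 1 and 8.68 and 8.66 at day 7. The sums of the tenocyte list were 13.55 and 14.32 in sham, 14.88 and 14.52 at day 1, and 16.86 and 16.87 at day 7, with no fall at day 1. Those of the endothelial list were 12.75 and 12.79 in sham, 12.21 and 12.40 at day 1, and 13.28 and 13.32 at day 7. The part of these lists in the course of *Mmp2*, *Mmp14* and *Timp2* was not tested. *Mmp1b*, a mouse counterpart of the human interstitial collagenase, was dim at 4.89 and 5.49 in sham, 3.87 and 3.74 at day 1, 4.76 and 4.22 at day 3, 4.24 and 4.29 at day 5, and 4.57 and 4.31 at day 7. It fell by 1.38 at day 1 (adjusted p = 0.00376) and 0.92 at day 5 (adjusted p = 0.0304), and the latter ended without either day 5 array or sham replicate 2 (-1.22 to -0.62).

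**Figure D3:**
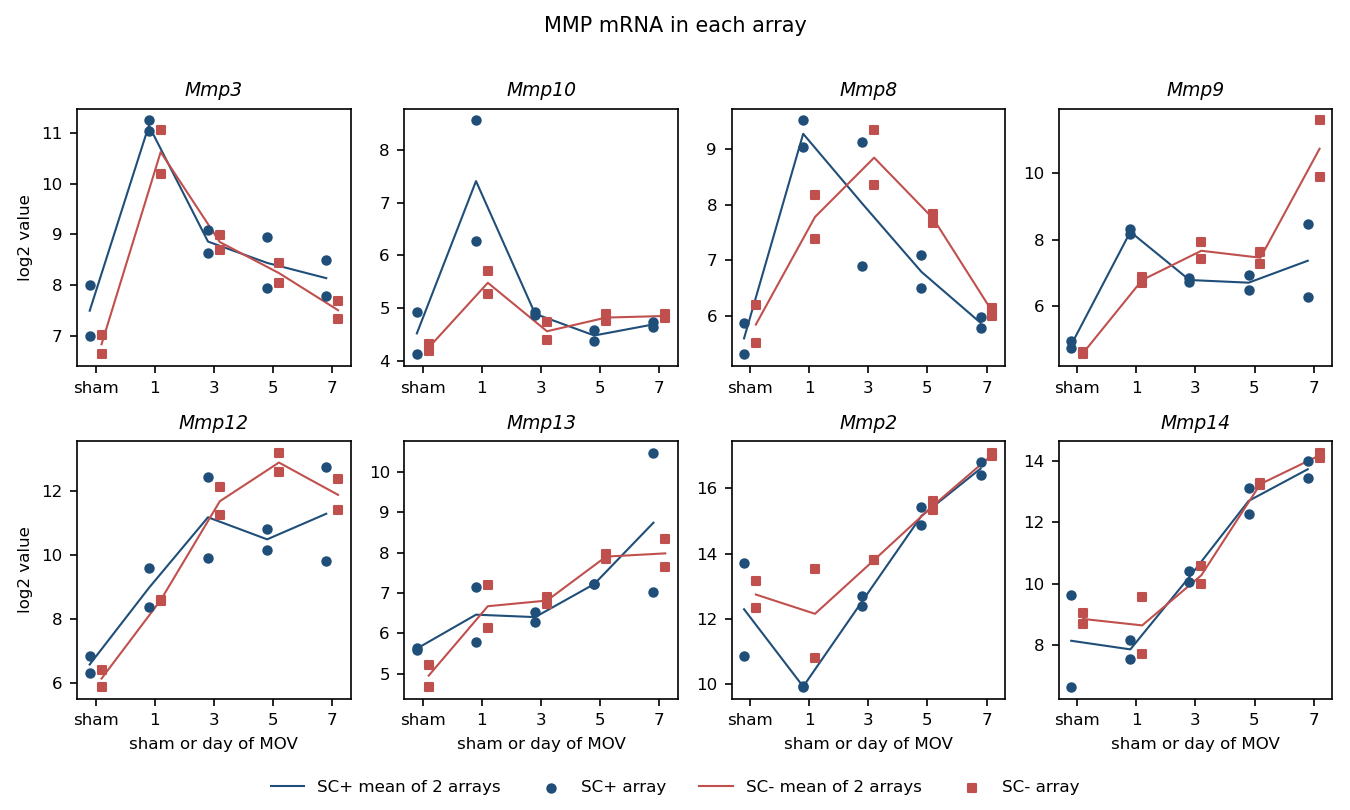
Log2 values of 8 Mmp genes (vertical axis, a scale for each gene) in sham and at MOV days 1 to 7; points are arrays and lines join the means of 2 arrays, circles for SC+ and squares for SC-. *Mmp3*, *Mmp10*, *Mmp8* and *Mmp9* are high at day 1 in SC+, and *Mmp2* and *Mmp14* are highest at day 7, at 16.42 and 16.80 and at 13.44 and 13.99.

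Among the ADAMTS genes, those that cut proteoglycans rose on different days. *Adamts1*, which cuts versican and aggrecan, read 8.41 and 9.24 in sham, 11.03 and 11.50 at day 1, and 10.69 and 10.09 at day 3. It rose by 2.44 at day 1 (adjusted p = 0.00219) and 1.57 at day 3 (ended without sham replicate 1 or MOV day 3 replicate 1, 1.15 to 1.98), with 1.07 and 0.90 at days 5 and 7 not past the threshold. *Adamts9*, a versican-cutting enzyme, read 7.91 and 8.20 in sham and 10.63 and 10.24 at day 1. It rose by 2.38 at day 1 (adjusted p = 1.16e-04), 1.22 at day 3 and 1.12 at day 5, the last ending without sham replicate 1 or MOV day 5 replicate 1 (0.90 to 1.34) and the day 3 rise without MOV day 3 replicate 2 (1.00 to 1.44).

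*Adamts4* (aggrecanase 1) was up from day 3 on. It read 5.95 and 5.79 in sham, 6.49 and 7.45 at day 1, 7.54 and 8.58 at day 3, 8.19 and 8.34 at day 5, and 7.89 and 7.87 at day 7. The change was 1.10 at day 1 (adjusted p = 0.0531, but 0.0337 to 0.0450 with a replicate block, all 20 arrays in 1 fit, brighter genes alone, a second quantile normalization or a trended prior), 2.19 ± 0.36 (SE) at day 3 (adjusted p = 9.06e-04), 2.39 at day 5 and 2.01 at day 7, and the later 3 held without any 1 array. *Adamts5* (aggrecanase 2), which lies next to *Adamts1* on chromosome 16, read -0.80, 0.59, 0.57 and 0.14 against sham, none past the threshold. *Adamts20* rose at day 5 alone (1.22, adjusted p = 0.0111), a call that ended without either day 5 array (1.15 to 1.29). *Adamts8* and *Adamts15*, neighbours on chromosome 9, passed on no day. In all, 2, 3, 3 and 1 of these 7 proteoglycan-cutting genes rose on the 4 days (all genes, 8.7%, 12%, 11.4% and 10.5%) and none fell (9.03%, 9.52%, 7.87% and 7.59%), and with so few genes nothing is read from the latter.

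*Adamts6*, an ADAMTS of microfibrils, read 6.02 and 5.98 in sham, 6.13 and 6.32 at day 1, 7.60 and 7.69 at day 3, 8.07 and 8.18 at day 5, and 7.85 and 8.38 at day 7. It was at the sham level at day 1 (0.22) and rose by 1.64, 2.13 ± 0.23 (SE, adjusted p = 2.68e-04) and 2.12 on the later days. Its relative *Adamts10* fell by 1.06 at day 1 (adjusted p = 0.0340), a call that ended without any of its 4 arrays (-1.30 to -0.83). At day 7 it read 7.97 and 8.72 against 7.32 and 7.53 in sham (0.92), which was no call. That rise passed with all 20 arrays in 1 fit, a replicate block or brighter genes alone (adjusted p of 0.0182 to 0.0494). In SC- *Adamts10* rose at day 7, a call that held without any 1 array (1.44 to 1.90). *Adamts7* and *Adamts12*, which cut cartilage oligomeric matrix protein (*Comp*), rose at day 7 alone, by 0.68 and 1.13. The first ended without any of its 4 arrays (0.50 to 0.87) and the second without MOV day 7 replicate 2 or either sham array (0.80 to 1.45). *Adamts16* rose by 1.17 at day 7 and ended without sham replicate 1 or MOV day 7 replicate 2 (0.71 to 1.63). The procollagen N-propeptidases *Adamts3* and *Adamts14*, which trim fibrillar procollagen, passed on no SC+ day, with changes of -0.70 to 0.57.

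**Figure D4:**
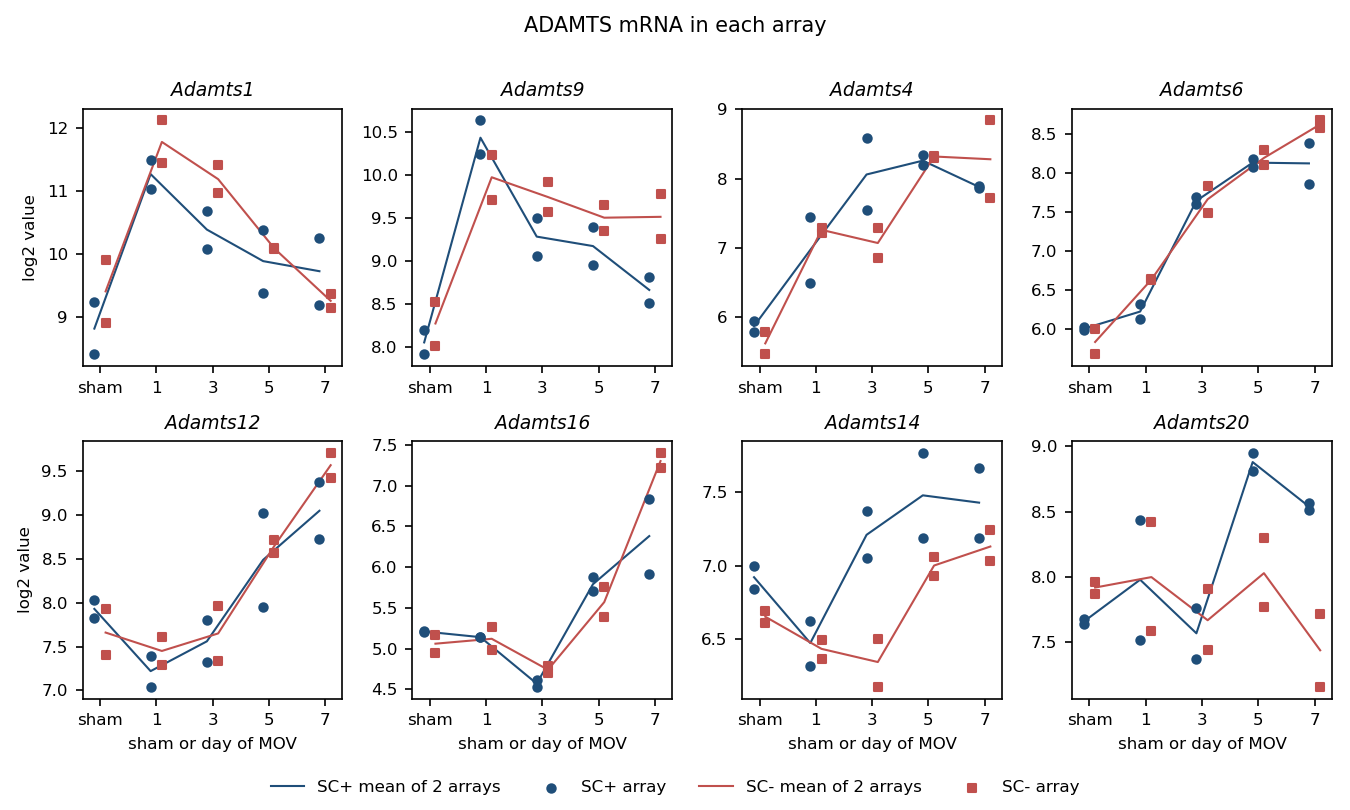
Log2 values of 8 Adamts genes (vertical axis, a scale for each gene) in sham and at MOV days 1 to 7; points are arrays and lines join the means of 2 arrays, circles for SC+ and squares for SC-. In SC+, *Adamts1* and *Adamts9* are highest at day 1 and *Adamts6* is above 7.5 from day 3, and *Adamts4* in SC- is already at 7.29 and 7.22 at day 1.

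Neighbouring days in SC+ were compared too, and members passed only at the step from day 1 to day 3: 6 were higher at day 3 (all genes, 4.39%) and 3 lower (2.77%). Higher were *Mmp2* (2.61), *Timp2* (2.49), *Adamts6* (1.42), *Adamts5* (1.39), *Adamts10* (1.39) and *Mmp16* (1.01), and lower were *Mmp10* (-2.53), *Mmp3* (-2.28) and *Adamts9* (-1.16). Of these 9 calls only *Timp2* (2.26 to 2.71) held without any 1 array. The other ranges were 2.47 to 2.76 for *Mmp2*, 1.32 to 1.52 for *Adamts6*, 1.25 to 1.52 for *Adamts5*, 1.04 to 1.74 for *Adamts10*, 0.82 to 1.20 for *Mmp16*, -3.67 to -1.38 for *Mmp10*, -2.50 to -2.05 for *Mmp3* and -1.38 to -0.93 for *Adamts9*. They ended without MOV day 3 replicate 2 (all 8), MOV day 1 replicate 2 (*Adamts10*, *Mmp3*, *Mmp2*, *Mmp16*, *Adamts9* and *Adamts5*), MOV day 1 replicate 1 (*Adamts10*, *Mmp2*, *Mmp16*, *Adamts9* and *Adamts5*) or MOV day 3 replicate 1 (*Mmp2*, *Mmp16*, *Mmp10*, *Adamts9* and *Adamts5*). From day 3 to 5, 0 members passed in limma (of all genes 0.21% were called higher and 0.0359% lower), and 10 had an unadjusted p under 0.05 (all genes, 10.8%). From day 5 to 7, 0 members passed, with 0% of all genes called in either direction, and 5 had an unadjusted p under 0.05 (all genes, 5.7%). The mean of *Mmp2* was 12.55 at day 3 and 15.16 at day 5, a step of like size to that before it, so the lack of calls does not show a lack of change.

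Over both treatments 28 members (65.1%) passed the test on at least 1 MOV day and 15 on none, where 45.5% of all genes passed on at least 1 of the same 8 comparisons. Of these 15 genes 14 were dim, with means of 3.42 to 6.91 over the 15, and their changes lay between -0.99 and 0.77. They were *Mmp1a*, *Mmp7* (matrilysin), *Mmp17*, *Mmp20* (enamelysin), *Mmp21*, *Mmp24*, *Mmp25*, *Mmp28*, *Adamts8*, *Adamts13* (the von Willebrand factor protease), *Adamts14*, *Adamts15*, *Adamts17*, *Adamts18* and *Adamts19*. *Mmp21* read 3.93 and 4.05 in SC+ sham, 3.66 and 4.06 at day 1, 3.62 and 3.24 at day 3, 3.39 and 3.53 at day 5, and 3.62 and 3.75 at day 7, within the range of the background controls. Of the 20 dim members 6 passed on at least 1 day, and of the other 23 members 22 did. At these levels a change of a dim gene could be understated.

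Genes around the family were read as fixed lists of known roles. Of all genes 8.7%, 12%, 11.4% and 10.5% rose on the 4 days in SC+, and 9.03%, 9.52%, 7.87% and 7.59% fell. With so few genes in a list, nothing is read from a lack of falls. All 8 inducers (cytokines and AP-1 subunits) rose at day 1, and 6, 5 and 2 of them on the later days: *Il1b* by 5.77, *Il6* by 3.51, *Junb* by 2.68 and *Fos* by 2.23 at day 1. Of 16 activators and surface regulators, 3, 6, 6 and 5 rose and 2, 3, 2 and 2 fell. *Plaur*, the urokinase receptor, rose by 3.97 at day 1, and *Bsg*, a surface inducer of Mmp synthesis, fell by 1.00. Of 17 substrates, 1 was higher and 8 were lower at day 1, 5 higher and 2 lower at day 3, 8 higher at day 5 and 10 higher at day 7. *Col1a1* read -3.16 at day 1 and 5.04 at day 7, and the versican gene *Vcan* rose by 2.61 at day 1. Both depended on the sham arrays: *Vcan* at day 1 was 1.08 without sham replicate 1 and ended without either day 1 array, while leaving out sham replicate 2 gave *Col1a1* a day 1 fall of -1.82 and leaving out replicate 1 a day 7 rise of 3.70. Of 10 other metalloproteases of the metzincin clan, 3, 5, 6 and 5 rose and none fell, *Adam12* by 4.57 and *Bmp1*, the procollagen C-proteinase, by 3.05 at day 7. Of 5 ADAMTS-like genes, which lack the protease domain, 1 fell at day 1 (*Adamtsl3*, -1.22) and 1 at day 5 (*Adamtsl4*, -0.83), and each ended without sham replicate 1 or MOV replicate 1 of its day, the latter also without replicate 2. The fall of *Bsg* ended without sham replicate 1 or MOV day 1 replicate 2. With 1 array left out, the inducers that rose at day 1 ran from 5 (without MOV day 1 replicate 1) to 7, and the substrates that fell from 4 (without MOV day 1 replicate 2) to 11 (without sham replicate 1).

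In SC- muscle *Timp1* rose and *Timp4* fell on every day against SC- sham, *Mmp3* rose at day 1 and *Mmp2*, *Mmp14* and *Timp2* rose at days 5 and 7. *Mmp10* and the fall of *Timp2* at day 1 had no call in SC-, while *Adamts4* was already called at day 1. These contrasts depended on the fit. In limma on the SC- arrays alone, *Mmp10* (1.24, adjusted p = 0.00498) and *Mmp13* (1.73, adjusted p = 0.00440) passed at day 1, and *Mmp13* and *Mmp14* at day 3. That fit lost 4 calls. *Adamts4* also passed at SC+ day 1 with all 20 arrays in 1 fit (adjusted p = 0.0433). By the mean of 2 arrays *Mmp8* was highest at day 3 and *Mmp9* at day 7, where both had been highest at day 1 in SC+. The SC+ arrays overlapped between days. *Mmp8* read 9.14 in MOV day 3 replicate 2 against 9.52 and 9.05 at day 1. *Mmp9* read 8.47 in MOV day 7 replicate 2 against 8.16 and 8.33 at day 1. The members past an adjusted p of 0.05 were 10 higher and 2 lower at day 1 (all genes, 6.8% and 7.62%), 12 higher and 2 lower at day 3 (11.7% and 9.57%), 18 higher and 2 lower at day 5 (14.9% and 13%), and 19 higher and 2 lower at day 7 (15% and 13.6%). The median change of the members was 0.07, 0.21, 0.57 and 0.60. Of the 67 calls 46 held without any 1 array. These counts come from a fit of all 20 arrays, and that in SC+ from 10, so the counts of the 2 treatments do not measure a difference.

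*Timp1* in SC- read 7.27 and 7.78 in sham, 12.65 and 12.45 at day 1, 14.79 and 13.72 at day 3, 14.06 and 14.27 at day 5, and 13.59 and 13.53 at day 7. It rose by 5.02, 6.73 ± 0.74 (SE, adjusted p = 5.36e-06), 6.64 and 6.04, from sham arrays that lay close together. *Timp2* read 12.75 and 12.29 in sham, 10.47 and 12.55 at day 1, 13.35 and 13.17 at day 3, 14.57 and 14.62 at day 5, and 15.55 and 15.70 at day 7, with rises of 2.08 and 3.11 at days 5 and 7. Its change at day 1 was -1.01, not past the threshold, and the 2 arrays stood apart. *Timp3* read 6.49 and 7.34 in sham, 5.03 and 6.02 at day 1, 5.29 and 5.33 at day 3, 5.82 and 5.66 at day 5, and 5.89 and 6.11 at day 7. It fell by 1.39, 1.61, 1.18 and 0.92, and without SC- sham replicate 2 the falls at days 1, 5 and 7 ended. Those also ended without MOV day 1 replicate 1 (-1.89 to -0.90), MOV day 5 replicate 2 (-1.60 to -0.75) and either day 7 array (-1.35 to -0.49). *Timp4* read 9.29 and 9.23 in sham, 7.99 and 6.68 at day 1, 6.15 and 6.51 at day 3, 6.42 and 5.86 at day 5, and 5.70 and 6.02 at day 7. The falls were -1.92, -2.93, -3.12 and -3.40 ± 0.44 (SE, adjusted p = 1.0e-05), and the day 1 fall ended without MOV day 1 replicate 2 (-2.58 to -1.27).

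Among the SC- proteases, *Mmp2* read 13.17 and 12.33 in sham, 10.81 and 13.52 at day 1, 13.82 and 13.81 at day 3, 15.33 and 15.63 at day 5, and 17.09 and 16.99 at day 7. It rose by 2.72 at day 5, which ended without SC- sham replicate 2 (2.31 to 3.14), and by 4.29 at day 7. *Mmp14* read 8.67 and 9.03 in sham, 7.72 and 9.57 at day 1, 10.56 and 9.98 at day 3, 13.21 and 13.26 at day 5, and 14.25 and 14.10 at day 7, with rises of 4.39 and 5.32 at days 5 and 7. Both genes thus rose at days 5 and 7 in muscle of either treatment. *Mmp3* read 6.64 and 7.03 in sham, 11.06 and 10.19 at day 1, 8.99 and 8.70 at day 3, 8.43 and 8.05 at day 5, and 7.34 and 7.69 at day 7. It rose by 3.79 at day 1, 2.01 at day 3 and 1.40 at day 5 (ended without SC- sham replicate 1 or MOV day 5 replicate 1, 1.21 to 1.60). *Adamts4* read 5.78 and 5.46 in sham, 7.29 and 7.22 at day 1, 7.28 and 6.86 at day 3, 8.33 and 8.30 at day 5, and 8.84 and 7.72 at day 7, above sham throughout. It rose by 1.64, 1.45, 2.69 and 2.66, and the day 3 rise ended without SC- sham replicate 2 or MOV day 3 replicate 1 (1.24 to 1.66). On any day, 3 members (6.98%; all genes, 12.2%) were called in SC- and not in SC+, and 3 (all genes, 6.72%) in SC+ and not in SC-, namely *Mmp10*, *Mmp1b* and *Adamts20*. The former were *Adamts3* (1.12 and 1.45 at days 5 and 7), *Adamts5* (1.26 and 1.29 at days 3 and 5) and *Mmp11* (1.48 at day 7). The *Adamts3* calls ended without any of its 4 arrays at day 5 (0.85 to 1.40) and without SC- sham replicate 2 or MOV day 7 replicate 1 at day 7 (1.07 to 1.83). Those of *Adamts5* ended without SC- sham replicate 1, MOV day 3 replicate 2 (0.76 to 1.77) or MOV day 5 replicate 1 (0.79 to 1.79), and that of *Mmp11* without SC- sham replicate 1 (1.10 to 1.85). Of the 3 called in SC+ alone, *Mmp10* passed at SC- day 1 in a fit of the SC- arrays alone (1.24). Without SC- sham replicate 2, *Mmp1b* read -1.67, -1.71 and -1.19 against sham at SC- days 3, 5 and 7. Membership of both sets thus depended on the fit or on single arrays. The difference between the treatments is tested next.

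The effect of satellite cell depletion was read as SC- against SC+ at the same time point, with an unadjusted p under 0.05 as the threshold and the adjusted p beside it. At sham 0 members passed (all genes, 5.58%), and 0 had an adjusted p under 0.05 in limma. At day 1, 4 were higher and 3 lower in SC- (7 of 43, or 16.3%, against 5.99% of all genes). At day 3, 1 was higher and 2 lower (6.98% against 5.46%). At day 5, 2 were higher and 1 lower (6.98% against 9.2%). At day 7, 8 were higher and 2 lower (23.3% against 12.1%). The members' share at days 3 and 5 was near that of all genes. These counts depended on single arrays: at sham 1 to 5 members passed when any of the 4 sham arrays was left out. At day 1 it was 3 without SC- replicate 2, 4 without SC+ replicate 1 and 13 without SC- replicate 1. At day 7 it was 3 without SC+ replicate 1, 4 without SC- replicate 1 and 14 without SC+ replicate 2. *Mmp9* at day 7 also had an adjusted p under 0.05, and that call rested on single arrays.

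*Mmp9* in SC- read 4.63 and 4.55 in sham, 6.69 and 6.89 at day 1, 7.92 and 7.42 at day 3, 7.64 and 7.28 at day 5, and 11.59 and 9.89 at day 7. It was below SC+ at day 1, where SC+ read 8.16 and 8.33, and above SC+ at day 7, where SC+ read 6.27 and 8.47. The difference was -1.46 ± 0.52 (SE) at day 1 (adjusted p = 0.736), 0.88 at day 3, 0.75 at day 5 and 3.37 at day 7 (10.3-fold, adjusted p = 0.0117). Without 1 array the day 7 value ran from 2.27 to 4.47 and stayed under an unadjusted p of 0.05, but the adjusted p was 0.245 without SC+ MOV day 7 replicate 1 and 0.174 without SC- MOV day 7 replicate 1, and 0.0644 with all rows tested. The difference at day 1 ended without SC- MOV day 1 replicate 1 or SC+ MOV day 1 replicate 2 (-1.56 to -1.36).

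*Mmp8* in SC- read 5.50 and 6.19 in sham, 8.17 and 7.39 at day 1, 9.34 and 8.36 at day 3, 7.67 and 7.83 at day 5, and 6.00 and 6.14 at day 7. It was lower than SC+ at day 1 (-1.50 ± 0.51 SE, adjusted p = 0.692), which ended without SC- MOV day 1 replicate 2 or SC+ MOV day 1 replicate 1 (-1.89 to -1.11). *Mmp10* was lower at day 1 too, at 5.27 and 5.70 against 8.56 and 6.27 (-1.93, adjusted p = 0.461), with -0.79 as the value nearest 0 without 1 array. Neutrophil markers differed in the same direction: 5 of 7 were lower in SC- at day 1, with summed signals of 13.51 and 13.03 in SC- and 14.63 and 14.78 in SC+, but 2 without replicate 2 of either treatment. At day 7, 4 were higher and 1 lower, with 11.61 and 11.28 in SC- and 9.57 and 10.72 in SC+, and 2 were higher without replicate 1 of either treatment. Of all genes 5.99% passed in either direction at day 1 and 12.1% at day 7. Within SC- the sums were 13.23 and 13.05 at day 3 and 12.23 and 12.14 at day 5. They thus fell to day 7, where *Mmp9* was highest in SC-. *Mmp8* at day 7 read 6.00 and 6.14 in SC- and 5.78 and 5.97 in SC+. The part of the neutrophil markers in the differences of *Mmp8* and *Mmp9* was not tested.

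*Mmp12* in SC- read 5.87 and 6.39 in sham, 8.60 and 8.56 at day 1, 12.12 and 11.23 at day 3, 12.59 and 13.18 at day 5, and 12.36 and 11.39 at day 7. At day 5 both SC- arrays lay above both SC+ arrays (10.81 and 10.16), a difference of 2.40 ± 0.76 (SE, adjusted p = 0.322) that held without any 1 array. Macrophage markers summed to 17.95 and 17.74 in SC- and 16.52 and 17.04 in SC+ at day 5. There 3 of 10 were higher in SC- (all genes in either direction, 9.2%), a count that rested on replicate 1 of either treatment. Their part was not tested. *Timp1* was higher in SC- at day 7 (1.66 ± 0.74 SE, adjusted p = 0.371) and ended without SC+ MOV day 7 replicate 1 or either SC- array (1.33 to 2.00).

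*Mmp2* and *Mmp16* were higher in SC- at day 1, by 2.23 and 1.18 (adjusted p = 0.664 for each), and ended without SC- MOV day 1 replicate 2, the array that stood apart (0.87 and 0.35 without it). *Mmp1b* (0.90) and *Adamts5* (0.82) were higher too. *Mmp1b* read 5.79 and 4.32 in SC- sham, 4.25 and 5.15 at day 1, 4.09 and 4.17 at day 3, 4.0 and 4.17 at day 5, and 5.00 and 4.20 at day 7. Its day 1 difference ended without SC- MOV day 1 replicate 2 or either SC+ array (0.45 to 1.35), and that of *Adamts5* without any of the 4 arrays (0.78 to 0.85). Substrate genes moved alike at day 1, with 7 of 17 higher in SC- and none lower (all genes in either direction, 5.99%). So did 3 of 6 fibroblast markers, whose summed signals were 16.52 and 17.34 in SC- and 16.56 and 16.13 in SC+. The lists share *Dcn* and *Lum*, so these counts are not independent. Without SC- MOV day 1 replicate 2, 0 substrates and 1 fibroblast marker passed, and without SC+ MOV day 1 replicate 2 it was 3 and 1. *Col1a1* read 9.33 and 13.87 in SC- against 9.03 and 9.02. Their part was not tested.

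*Mmp23* read 6.39 and 6.27 in SC- sham, 5.72 and 6.31 at day 1, 7.15 and 6.72 at day 3, 8.06 and 7.27 at day 5, and 8.74 and 8.85 at day 7. It was higher in SC- at day 3 (0.73) and at day 7 (0.89, adjusted p = 0.177), but the first ended without SC- or SC+ MOV day 3 replicate 1 (0.52 to 0.94) and the second without SC+ MOV day 7 replicate 1 (0.61 to 1.17). *Adamts14*, a procollagen N-propeptidase, read 7.00 and 6.84 in SC+ sham, 6.31 and 6.62 at day 1, 7.05 and 7.37 at day 3, 7.19 and 7.77 at day 5, and 7.19 and 7.67 at day 7. In SC- it read 6.69 and 6.61 in sham, 6.36 and 6.49 at day 1, 6.17 and 6.5 at day 3, 6.93 and 7.06 at day 5, and 7.03 and 7.24 at day 7. It was lower in SC- at day 3 (-0.87, adjusted p = 0.626), which held without any 1 array. *Adamts4* was lower at day 3 (-0.99) and ended without either replicate 2 of that day (-1.51 to -0.47).

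*Adamts20*, which cuts versican, was lower in SC- at days 5 (-0.85) and 7 (-1.10, at 7.16 and 7.72 against 8.57 and 8.51). The first ended without SC- MOV day 5 replicate 2 or SC+ MOV day 5 replicate 1 (-1.11 to -0.58) and the second without SC- MOV day 7 replicate 1 (-1.38 to -0.82). The dim membrane-type *Mmp17* was higher at day 5 (0.52) and ended without SC+ MOV day 5 replicate 1 or either SC- array (0.25 to 0.79). At day 7 *Adamts16* (0.92), *Mmp11* (0.87), *Adamts9* (0.86), *Adamts18* (0.77) and *Adamts6* (0.50) were higher in SC-. *Mmp21* was lower at day 7 (-0.63), at 3.02 and 3.08 in SC-, after 3.77 and 3.58 in SC- sham, 3.86 and 3.16 at day 1, 3.19 and 3.68 at day 3, and 3.13 and 3.11 at day 5. These 6 calls ended without SC+ MOV day 7 replicate 1 (all but *Mmp21*), SC+ MOV day 7 replicate 2 (*Mmp21*), SC- MOV day 7 replicate 1 (*Mmp21*, *Adamts6*, *Adamts9* and *Adamts18*) or SC- MOV day 7 replicate 2 (*Mmp21*, *Adamts6* and *Mmp11*). Their ranges were 0.46 to 1.39 for *Adamts16*, 0.57 to 1.16 for *Mmp11*, 0.60 to 1.12 for *Adamts9*, 0.64 to 0.90 for *Adamts18*, 0.24 to 0.76 for *Adamts6* and -0.70 to -0.56 for *Mmp21*.

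**Figure D5:**
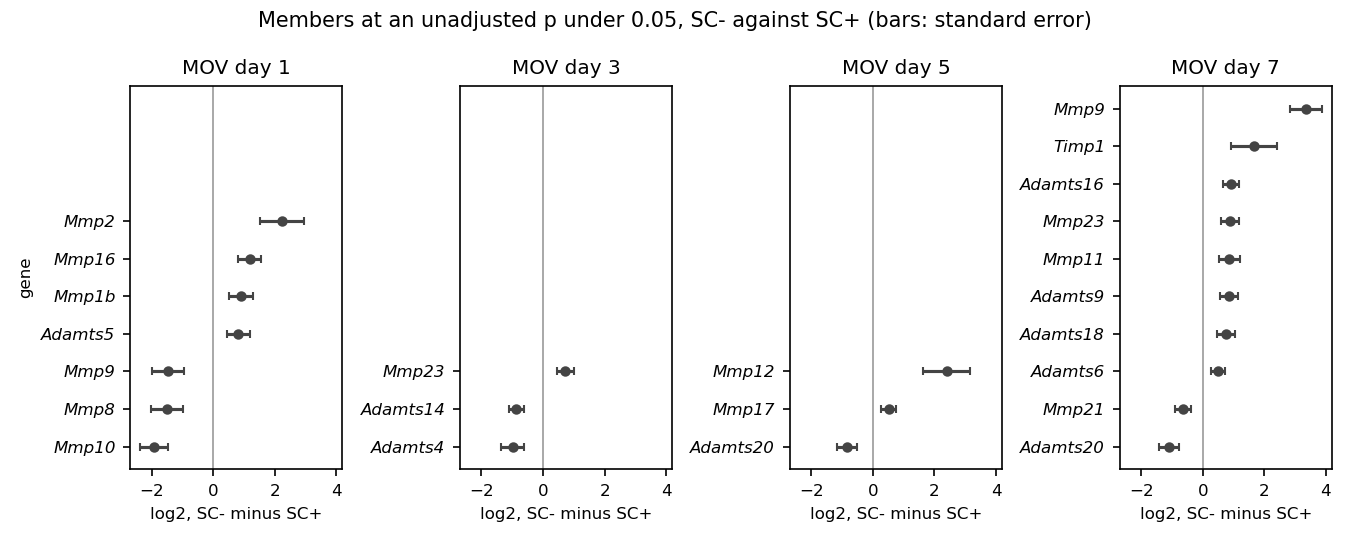
Difference in log2 value between SC- and SC+ (horizontal axis; bars are standard errors of the fit of 20 arrays) for the members with an unadjusted p under 0.05 at each MOV day (panels). *Mmp9* at day 7, at 3.37, is the only one with an adjusted p under 0.05.

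Whether the response to MOV itself differed was tested as the SC- change from sham minus the SC+ change from sham. At day 1, 4 members had an unadjusted p under 0.05 (all genes, 4.93%), at day 3 it was 2 (4.2%), at day 5 it was 2 (7.8%) and at day 7 it was 4 (9.28%), and none passed after adjustment. At day 7 the response of *Mmp9* was 3.62 ± 0.73 (SE) larger in SC- (adjusted p = 0.152), and it held without any 1 array (2.52 to 4.72). The values of *Timp1* turned on the sham arrays: SC- against SC+ at sham was -1.55 without SC+ sham replicate 1 and 2.51 without replicate 2 (adjusted p = 0.0316), and its response at day 7 was 3.22 larger in SC- without SC+ sham replicate 1 (adjusted p = 0.0104). A treatment effect shared by all time points, from an additive model, was past an adjusted p of 0.05 for 0 of the 43 members in limma (all genes, 0.0103% higher and 0.0308% lower), with 9 at an unadjusted p under 0.05 (all genes, 8.71%). The lowest p belonged to *Timp3*, 0.49 ± 0.14 (SE) higher in SC- (adjusted p = 0.254). *Adamts14* was 0.39 lower (adjusted p = 0.289), *Mmp23* 0.45 higher (0.314), *Mmp21* 0.33 lower and *Mmp2* 0.94 ± 0.33 (SE) higher (0.415 each).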

How the data were processed

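Whole-muscle RNA of 20 pools was read on Affymetrix arrays. The authors deposited log2 values, made by RMA according to the submitters' processing notes (which corrects for background, normalizes by quantiles and takes log2), for 28846 probe sets; the study's methods name an Affymetrix Mouse Gene ST array, whereas the transcript cluster names in the table are of another style, so the type is not settled here. The platform annotation gives 1 symbol for 19572 probe sets, and for 55 genes with more than 1 probe set the one with the highest mean was kept. Array medians were 6.497 to 6.567. RMA equalizes the distributions of the arrays, so a change shared by most genes would not show. The number of arrays limits the precision, and no read depth applies.

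Groups came from the sample labels. Linear models were run in R 4.3.3 (limma 3.58.1, statmod 1.5.0): the SC+ response on the 10 SC+ arrays (5 residual degrees of freedom, prior 6.76), and the SC- response, SC- against SC+ and their interaction on all 20 arrays (10, prior 8.16), with Benjamini-Hochberg adjustment over 19505 genes. SC- against SC+ was read at an unadjusted p under 0.05, the choice of the study's methods for pooled samples. The scripts were tested on simulated data. Values in every array are given for the 4 Timp genes, for up to 4 of the largest rises and 3 of the largest falls per SC+ day and for the 5 lowest p over all time points; other members were named because they passed a test, after their values were seen. Summed marker signals are log2 of the sum of unlogged values. Replicate numbers were not taken to pair samples. The members and gene lists were chosen with earlier results of these data known. Alternatives were another prior, centring, a second quantile normalization, all rows, only brighter genes, averaged probe sets, a replicate block and arrays left out. Promoters are RefSeq sequences of GRCm38.p6. The build of the probe sets is not given in the sources used here.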

Additional observations from a re-analysis of the deposited data

Results flagged for a closer look

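The change from sham differed between SC- and SC+ at an unadjusted p under 0.05 for the results that follow (limma interaction, log2, SC- minus SC+). The lowest adjusted p among them was 0.152, for *Mmp9*, so none passed after adjustment. On the 4 days 9.3%, 4.65%, 4.65% and 9.3% of the members and 4.93%, 4.2%, 7.8% and 9.28% of all genes had such a p. From day 3 on the members' share was near or below that of all genes.

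At day 1 the response in SC- was smaller for *Mmp8* (-1.76) and *Mmp10* (-1.66) and larger for *Mmp16* (1.53) and *Adamts5* (1.22). At day 3 it was larger for *Mmp16* (1.13) and *Mmp23* (0.85). At day 5 it was larger for *Mmp12* (2.84) and smaller for *Adamts20* (-1.11). At day 7 it was larger for *Mmp9* (3.62), *Adamts16* (1.07) and *Mmp23* (1.00) and smaller for *Adamts20* (-1.36). Without any 1 array, *Mmp9* (2.52 to 4.72) and *Adamts20* (-1.64 to -1.08) at day 7 stayed under an unadjusted p of 0.05. The other 10 did not for at least 1 array. At day 1, *Mmp8* (-2.15 to -1.37) and *Adamts5* (0.70 to 1.75) ended without SC- MOV day 1 replicate 2, SC+ MOV day 1 replicate 1 or SC+ sham replicate 2, and also without SC- sham replicate 2 (*Mmp8*) or replicate 1 (*Adamts5*). *Mmp10* (-2.80 to -0.52) ended without replicate 1 of either MOV day 1 group or of SC+ sham, and *Mmp16* without SC- MOV day 1 replicate 2 (0.70 without it). At day 3, *Mmp16* (0.84 to 1.41) ended without either SC- array, SC+ MOV day 3 replicate 1 or replicate 2 of either sham group, and *Mmp23* (0.63 to 1.06) without any array but SC- MOV day 3 replicate 2 and SC+ sham replicate 1. At day 5, *Mmp12* (2.51 to 3.17) ended without replicate 2 of either MOV day 5 group or SC- sham replicate 1, and *Adamts20* (-1.37 to -0.84) without SC- MOV day 5 replicate 2, SC+ MOV day 5 replicate 1, SC- sham replicate 1 or SC+ sham replicate 2. At day 7, *Mmp23* (0.72 to 1.29) ended without SC- MOV day 7 replicate 2, SC+ MOV day 7 replicate 1 or replicate 2 of either sham group, and *Adamts16* without SC+ MOV day 7 replicate 1 (0.61 to 1.53).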

How the results depend on the processing

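No call of a member reversed its direction under any alternative run, but values of *Timp1* that were no calls passed in opposite directions by the sham array left out (SC- against SC+ at sham, -1.55 and 2.51). *Adamts4* at SC+ day 1 became a call under several alternatives that kept all arrays (adjusted p of 0.0337 to 0.0450). So did *Mmp14* at SC+ day 3 (0.0286 to 0.0497) and *Adamts10* at SC+ day 7 (0.0182 to 0.0494). *Mmp12* at SC+ day 1 did so with all 20 arrays in 1 fit (0.0333), and *Adamts20* at SC+ day 7 with brighter genes alone (0.0421). With genes of a mean of at least 6 alone, fewer members were tested, and 1 fell at days 3 and 5 in SC+, 1 at each day in SC-, 6 members passed in SC- against SC+ at day 7 and 1 in the difference of responses at day 3. With all rows tested, 2 members were higher and 1 lower from day 1 to 3, 1 fell at day 7 in SC-, and 0 passed in the difference of responses at day 3. Centring the arrays or a trended robust prior gave 1 member from day 3 to 5 and 1 in the difference of responses at day 3, and the prior also gave 1 at day 5. A second quantile normalization or a fit of SC- arrays alone left 1 fall at day 7 in SC-, and the former gave 0 in the difference of responses at day 3. At an adjusted p under 0.05, SC- against SC+ counted 0 members at days 1, 3 and 5 and 1 at day 7. Except where an alternative tests fewer genes, uses fewer arrays or sets a stricter threshold, the cause was not tested.

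With 1 array left out, rises in SC+ ran from 8 to 9, 7 to 14, 8 to 15 and 10 to 14 members on the 4 days and falls from 3 to 8, 2 to 4, 1 to 2 and 1 to 2. From day 1 to 3, rises ran from 1 to 3 and falls from 1 to 2, and from day 3 to 5 calls ran from 0 to 1. In SC-, falls ran from 1 to 3 at days 1 and 7. SC- against SC+ gave 1 to 5 members at sham, 3 to 13 at day 1, 2 to 4 at day 3, 2 to 3 at day 5 and 3 to 14 at day 7. The difference of responses gave 1 to 8, 0 to 6, 0 to 6 and 3 to 11.

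Arrays with the same replicate number did not deviate together (r of -0.15 to 0.22 over 45 pairs of groups), so the numbers share only a name. With a replicate block, 1 member passed in the difference of responses at day 3, and the other 29 counts stayed within 1.5 times. The 2 arrays a group and the dim level of 20 members limit all counts here.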
